A study of Mus musculus with 16 samples.

Results

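The ATP-binding cassette (ABC) genes encode a family of proteins that bind and hydrolyse ATP, most of them to move lipids, drugs, metabolites or ions across membranes. The members described here were all rows of the deposited expression table whose Ensembl identifier has a mouse symbol made of Abc, a letter from a to g, a number and at most 1 further letter. This gave 49 of 39328 genes. Their levels were not used to choose them. Abca16 was not analysed here, and the ABC genes that carry other symbols (Cftr, Tap1 and Tap2) are given only for comparison.

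RNA was measured in whole colon of adult wild-type mice of the outbred ICR stock. DSS_CS mice were born by cesarean section (CS) and received 3% dextran sulfate sodium (DSS), a sulfated polysaccharide used to provoke colitis in rodents, in place of plain drinking water over 8 days. DSS_VD mice were born by vaginal delivery (VD) and received the same. CON_CS and CON_VD mice were born by cesarean section and vaginal delivery and drank normal water throughout. Each group had 4 libraries, 16 in all, and the groups shared strain, genotype, age class and tissue. Whether the libraries are separate animals is not said in the labels, which also name no litter or sex, so all p-values measure the spread between these samples only, which may be partly technical. Values are FPKM, the fragments assigned to a gene scaled to its length and to the size of the library, so levels may be compared between genes.

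ABC proteins have a pair of ATP-binding domains, carried by 1 full transporter or by a dimer of smaller proteins. In gut epithelium, P-glycoprotein (Abcb1a and Abcb1b in mice) and Abcg2 pump drugs and plant compounds back into the lumen, and the dimer of Abcg5 and Abcg8 returns sterols to it. Abca1 and Abcg1 pass cholesterol from cells to lipoproteins. The sulfonylurea receptors Abcc8 and Abcc9 transport no known substrate but regulate potassium channels, and the ABCE and ABCF proteins lack membrane domains and act in translation.

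The promoters of 4 members are shown because they belong to the genes on which the results turn. Abcg5 and Abcg8 are divergent neighbours whose levels moved together, and Abca1 and Abcc9 had the largest rises under DSS. Each window holds 300 bases in gene direction, 5′ to 3′, of which 250 precede an annotated start and 50 follow it, taken from RefSeq on GRCm38.p6. Capitals mark matches, on either strand, to the short motifs searched: TATAAA (the TATA box), CCAAT (the CCAAT box), GGGCGG (a GC box), CACGTG (an E box) and AGGTCA (a nuclear receptor element); no match overlapped another in these windows.
Abcg5, chr17:84682962-84683261, minus strand: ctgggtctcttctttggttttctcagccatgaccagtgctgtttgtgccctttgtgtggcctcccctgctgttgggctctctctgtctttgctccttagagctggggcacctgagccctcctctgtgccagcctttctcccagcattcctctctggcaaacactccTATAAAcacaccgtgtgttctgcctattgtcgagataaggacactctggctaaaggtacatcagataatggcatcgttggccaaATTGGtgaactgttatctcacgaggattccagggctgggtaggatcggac
Abcg8, chr17:84682871-84683170, plus strand: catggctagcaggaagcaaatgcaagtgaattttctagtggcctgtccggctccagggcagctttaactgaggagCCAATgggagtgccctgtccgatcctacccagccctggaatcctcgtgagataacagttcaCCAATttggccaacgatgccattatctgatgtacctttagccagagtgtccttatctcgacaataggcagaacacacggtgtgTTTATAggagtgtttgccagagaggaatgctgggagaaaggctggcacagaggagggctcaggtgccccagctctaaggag
Abca1, chr4:53159846-53160145, minus strand: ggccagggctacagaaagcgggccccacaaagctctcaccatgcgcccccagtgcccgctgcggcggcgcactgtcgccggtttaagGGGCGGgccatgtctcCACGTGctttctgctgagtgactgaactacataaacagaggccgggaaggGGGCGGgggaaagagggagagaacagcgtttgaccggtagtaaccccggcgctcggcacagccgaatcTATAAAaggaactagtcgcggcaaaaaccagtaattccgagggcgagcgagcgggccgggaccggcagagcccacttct
Abcc9, chr6:142702225-142702524, minus strand: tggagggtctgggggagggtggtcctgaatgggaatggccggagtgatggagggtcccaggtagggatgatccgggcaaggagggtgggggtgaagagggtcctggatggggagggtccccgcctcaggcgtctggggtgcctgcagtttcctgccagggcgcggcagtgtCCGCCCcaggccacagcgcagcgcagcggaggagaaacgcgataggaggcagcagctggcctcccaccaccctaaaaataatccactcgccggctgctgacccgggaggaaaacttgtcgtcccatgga
Several windows were listed for Abcg8, and the one shown was chosen because it overlaps the Abcg5 window, so the overlap is no result. The Abcg5 and Abcg8 windows shown shared 209 bases, at chr17:84682962-84683170, and their starts lay 110 bases apart. The annotated span of Abcg8 given below begins at 84676302, inside that of Abcg5. The single TATAAA match of both windows was the same site, read on opposite strands. The Abca1 window held 1 TATAAA, 2 GGGCGG and 1 CACGTG match, and the Abcc9 window 1 GGGCGG match. Of all 32851 promoter windows, 13.62% held TATAAA, 37.41% CCAAT, 35.66% GGGCGG, 7.15% CACGTG and 16.26% AGGTCA. Windows were found for 37 of the 49 members. Of their 44 windows, 7 held TATAAA, 15 CCAAT, 21 GGGCGG, 6 CACGTG and 7 AGGTCA. These matches describe letters in a window and are not binding sites.

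The libraries had FPKM sums of 280135 to 343423 over all genes, and read depth is unknown. Markers of absorptive colonocytes had summed levels of 97.4 to 427 FPKM over 8 genes in DSS_CS and 335 to 1239 in DSS_VD. In water the sums were 1319 to 1801 FPKM in CON_CS and 1811 to 2646 in CON_VD. Among these genes Slc26a3 was at 0.366 to 2.56 FPKM in DSS_CS, against 63.2 to 112 in CON_CS. Aqp8 was at 2.43 to 13.8 FPKM in DSS_CS, against 127 to 202 in CON_CS. Pbsn, a secretory gene of the prostate, was at 128 FPKM in DSS_CS replicate 3, 1355 in DSS_CS replicate 4 and 185 in CON_CS replicate 1, so these 3 libraries stand apart. Counts of called members that involve them are also given without them, as are the calls that this ends. The latter covers genes given with a fitted difference from the main tests. The summed FPKM of 10 pan-epithelial genes was 944 to 2919 in DSS_CS, 2899 to 6280 in DSS_VD, 6335 to 6927 in CON_CS and 5751 to 6913 in CON_VD. Of these 10 genes, all fell with DSS in CS mice, 3 fell in VD mice, and 7 were lower in DSS_CS than in DSS_VD. These counts are with all libraries, where 25.9%, 17% and 5.54% of all tested genes were called lower. The sum of 7 fibroblast genes was 1195 to 1603 FPKM in DSS_CS, 436 to 950.2 in DSS_VD, 235 to 271 in CON_CS and 210.0 to 231 in CON_VD. The 9 macrophage genes summed to 1199 to 1918 FPKM in DSS_CS, 767 to 1588 in DSS_VD, 157 to 178 in CON_CS and 143 to 446 in CON_VD. In whole tissue, fewer cells of a type and less RNA per cell cannot be told apart.

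ABC genes covered a wide range of levels. Over the 16 libraries, 8 members averaged above 10 FPKM, 22 between 1 and 10, and 19 below 1. The drug pump Abcb1a had the highest mean (31.7 FPKM), followed by the translation factors Abcf1 (20.8) and Abcf2 (17.2), the conjugate pump Abcc3 (17.2), the peroxisomal transporter Abcd3 (14.1) and the ribosome recycling factor Abce1 (12.6). At the other end, 15 members stayed below 1 FPKM in every library and 10 of them below 0.2. Abcb5 was listed at 0 throughout, and Abcb11, the bile salt export pump of hepatocytes, was listed at 0 in all but 2 DSS_VD libraries. The others below 1 were Abca4, Abca6, Abca8b, Abca12 to Abca15, Abca17, Abcb4, Abcc2, Abcc8, Abcc12 and Abcg4. Abcb9, Abcc6 and Abcd2 reached 1 FPKM in too few libraries to be tested. Thus 18 members entered no test.

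The summed FPKM of the family was 216 to 221 in DSS_CS, 204 to 233 in DSS_VD, 207 to 279.8 in CON_CS and 198 to 260.5 in CON_VD. Its make-up differed more than its sum. Abcb1a held 1.72% to 3.60% of the sum in DSS_CS and 4.95% to 16.7% in DSS_VD, against 14.6% to 24.2% in CON_CS and 16.03% to 29.4% in CON_VD. Abcc9 held 6.61% to 14.3% in DSS_CS and 1.87% to 4.52% in DSS_VD, against 0.916% to 1.20% in CON_CS and 0.437% to 0.821% in CON_VD. Abcf1 stayed between 6.99% and 10.6% in all libraries. Abcb1a was the most abundant member in all 8 water libraries, but under DSS it led only in DSS_VD replicate 1.

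**Figure D1:**
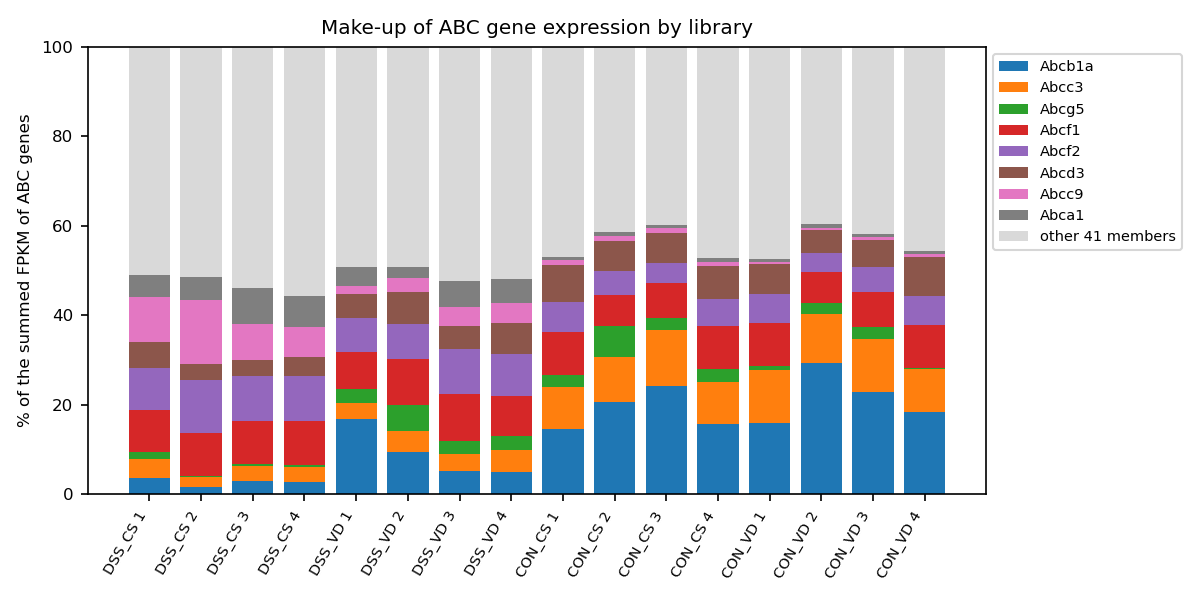
Share (%) of the summed FPKM of the 49 ABC genes held by 8 members and by the others together, as stacked bars with 1 bar per library, for DSS_CS, DSS_VD, CON_CS and CON_VD from left to right. Abcb1a takes at most 3.60% in DSS_CS and at least 14.6% in every water library, while Abcc9 reaches 14.3% in DSS_CS.

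The first comparisons asked how the family responded to DSS in mice of either birth mode. A member was tested where at least 4 of the 8 libraries reached 1 FPKM, with limma on log2(FPKM + 1) over the whole table; log2 differences are on that scale, which understates changes of low genes, and are given ± SE. In CS mice 26 of 31 tested members (83.9%) passed an adjusted p of 0.05, 14 higher and 12 lower in DSS_CS than in CON_CS, beside 60.3% of all 14372 tested genes (34.4% higher and 25.9% lower). In VD mice 14 of 30 tested members (46.7%) passed, 9 higher and 5 lower in DSS_VD than in CON_VD, beside 40.9% of all 13933 tested genes (24% higher and 17% lower). The group ranges of 26 members did not overlap in CS mice, 14 higher and 12 lower (57% of all genes, 32.9% higher and 24.1% lower), nor those of 13 in VD mice, 9 higher and 4 lower (38.6%, 22.2% higher and 16.4% lower). The median log2 difference of tested members was 0.23 in CS mice and 0.20 in VD mice, beside 0.06 over all tested genes in each. The filter let some members in through 1 group alone: Abca5, Abca9 and Abcg3 through DSS_CS, Abcg8 through CON_CS, and Abca9 through DSS_VD, so these had to differ to be tested.

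Rescaling the libraries by median of ratios moved the median over all genes by -0.11 in the CS comparison and turned its split over all genes to 4131 higher and 4692 lower, against 4937 and 3729 on the deposited scale. No called member changed direction, while Abcc4 and Abca7 lost their calls in CS mice.

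Leaving out the 3 libraries with Pbsn, for the same tested genes, left 23 of the 26 calls in CS mice, 13 higher and 10 lower, beside 48.7% of all tested genes. All 26 members kept their direction, and the largest shift of a log2 difference among them was 0.34. The calls of Abca3, Abcb10 and Abcc4 were lost. Without these libraries the log2 difference was 2.85 ± 0.24 for Abcc9 (adjusted p = 0.000594), 1.98 ± 0.13 for Abca1 (adjusted p = 0.000297) and -2.97 ± 0.40 for Abcb1a (adjusted p = 0.0025). Abcg5 and Abcg8 stayed just past the threshold, at -2.10 ± 0.64 (adjusted p = 0.0414) and -1.34 ± 0.43 (adjusted p = 0.047). With the filter on low values applied again to the 5 libraries that were left, 17 members were called, 9 higher and 8 lower, since 5 called members (Abca5, Abca9, Abcb1b, Abcg3 and Abcg8) then fell below it and Abcd3 no longer passed. Of the pathway genes given below with a log2 difference in CS mice, Eif2s1 did not pass without the Pbsn libraries, and the others did.

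The 2 responses, which share no library, had 9 members higher in both (Abca1, Abca2, Abca9, Abcc1, Abcc5, Abcc9, Abcf2, Abcg1 and Abcg3) and 5 lower in both (Abcb1a, Abcb6, Abcb8, Abcc3 and Abcc10). No member was called in opposite directions. Abca9 in both birth modes and Abcg3 in CS mice had to differ to be tested. The share of all genes called in both responses was not counted, so these counts do not set the family apart. In CS mice 4 more members rose and 7 more fell that were tested but not called in VD mice, and Abca5, not tested in VD mice, also rose. A call in 1 birth mode alone does not show a difference between them; the test of that difference is given further on.

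**Figure D2:**
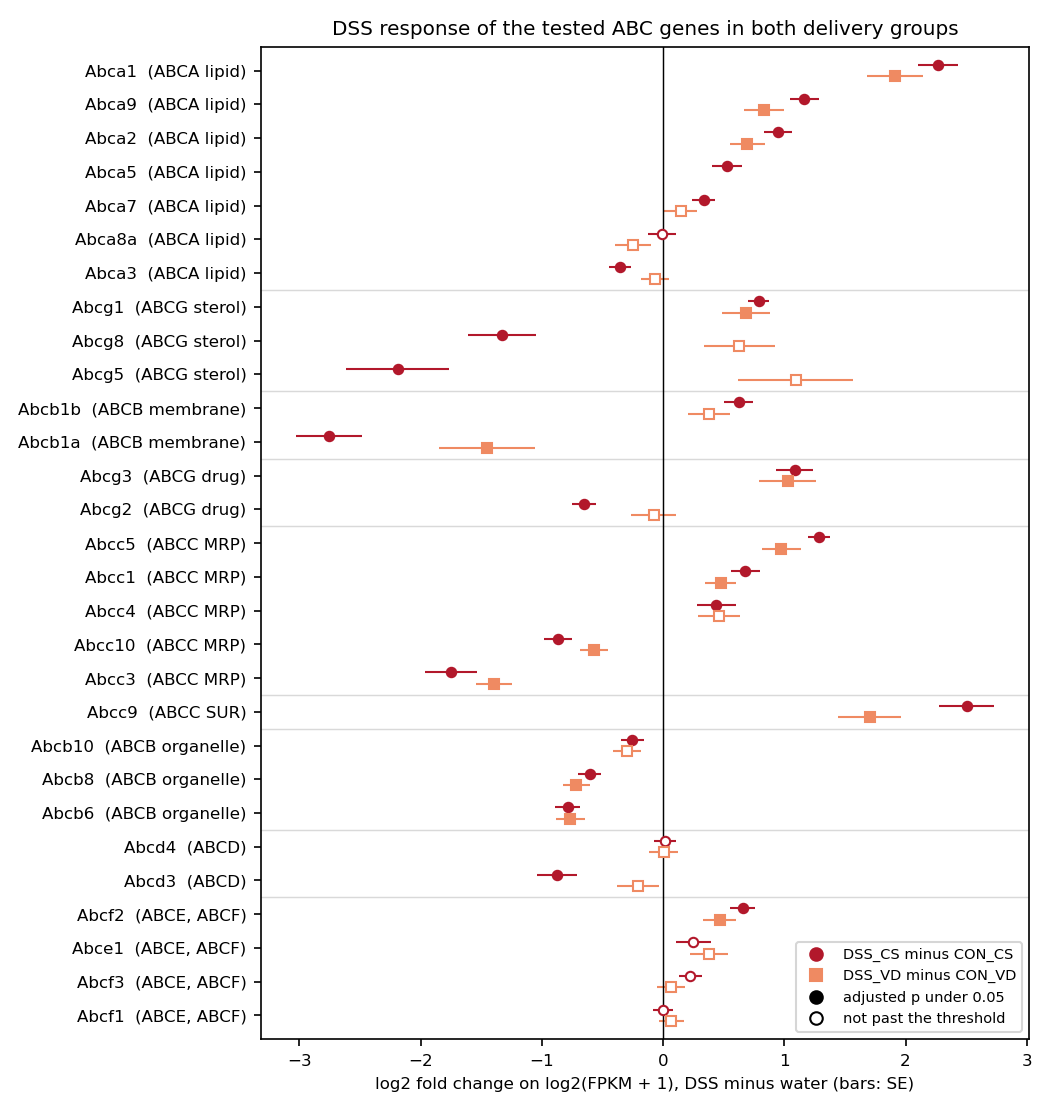
Log2 difference (x axis, on log2(FPKM + 1), bars SE) of the tested ABC genes reported here, grouped by role, for DSS_CS minus CON_CS (circles) and DSS_VD minus CON_VD (squares); filled symbols passed an adjusted p of 0.05. Abcc9 and Abca1 lie farthest to the right and Abcb1a farthest to the left in both responses.

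Of 15 sterol and phospholipid transporters of the ABCA group, 7 were tested in CS mice, where 5 rose and 1 fell, beside 34.4% and 25.9% of all tested genes. In VD mice 6 were tested, of which 3 rose and none fell, beside 24% and 17% of all tested genes. Abca1, which loads cholesterol and phospholipid onto apolipoprotein A-I (ENSMUSG00000015243, chromosome 4, 53030787 to 53159895, GRCm38), was at 11.0, 10.9, 18.2 and 15.02 FPKM in DSS_CS, against 1.93, 2.38, 2.05 and 1.71 in CON_CS. In VD mice it was at 9.38, 5.36, 11.7 and 12.6 FPKM in DSS_VD, against 1.53, 2.39, 1.69 and 1.44 in CON_VD. Every DSS library was above every water library. Abca1 rose by 2.27 on the log2 scale ± 0.16 in CS mice (adjusted p = 5.3e-06) and 1.92 ± 0.23 in VD mice (adjusted p = 0.000269).

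Abca2, a lysosomal lipid transporter, was at 3.65, 3.92, 4.88 and 3.40 FPKM in DSS_CS, against 1.87, 1.66, 1.44 and 1.30 in CON_CS. In VD mice Abca2 was at 3.27, 1.95, 3.25 and 2.69 FPKM in DSS_VD, against 1.28, 1.05, 1.33 and 1.65 in CON_VD. The groups did not overlap in either birth mode. It rose by 0.95 ± 0.12 in CS mice (adjusted p = 0.00012) and by 0.69 ± 0.15 in VD mice (adjusted p = 0.00444).

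Abca5, Abca6, Abca8a, Abca8b and Abca9 lie side by side on chromosome 11 (109932190 to 110337716, minus strand) and did not move alike. Abca9 was at 2.74, 2.42, 2.60 and 3.38 FPKM in DSS_CS, against 0.673, 0.601, 0.974 and 0.504 in CON_CS. In VD mice it stood at 2.02, 1.05, 2.28 and 2.42 FPKM in DSS_VD, against 0.524, 0.661, 0.681 and 0.623 in CON_VD. It rose by 1.17 ± 0.12 in CS mice (adjusted p = 3.62e-05) and 0.83 ± 0.16 in VD mice (adjusted p = 0.00333). Abca5, a lysosomal member, was at 1.38, 1.60, 1.21 and 2.18 FPKM in DSS_CS, against 0.962, 0.655, 0.771 and 0.751 in CON_CS, and at 0.861, 0.807, 0.986 and 0.885 in DSS_VD, against 0.208, 0.538, 0.224 and 0.517 in CON_VD. It rose by 0.53 ± 0.12 in CS mice (adjusted p = 0.00546). Abca5 and Abca9 entered the CS test through DSS_CS alone, and Abca9 the VD test through DSS_VD alone. Their ranges therefore had to be apart there. In VD mice, where Abca5 was not tested, its DSS and water libraries did not overlap. Abca8a averaged 1.73 ± 0.407 FPKM in DSS_CS and 1.74 ± 0.171 in CON_CS (SD, n = 4 each), with a log2 difference of -0.01 (95% interval -0.28 to 0.26). Abca8b stayed between 0.333 and 0.712 FPKM in all 16 libraries. Abca6, too low for the test, was at 0.217 to 0.390 FPKM in DSS_CS, against 0.0227 to 0.0605 in CON_CS. In VD mice Abca6 was at 0.0560 to 0.0996 FPKM in DSS_VD, against 0 to 0.0545 in CON_VD. Fitted without the filter, its log2 difference was 0.32 ± 0.04 in CS mice and 0.07 ± 0.02 in VD mice (adjusted p = 0.000934 and 0.0703). Reads shared by such close copies could have been split between them, and the labels do not say how the authors assigned them.

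Abca7 and Abca3 passed in opposite directions in CS mice and did not pass in VD mice. Abca7, a phospholipid transporter, averaged 8.57 ± 0.657 FPKM in DSS_CS and 6.60 ± 0.760 in CON_CS, a rise of 0.33 ± 0.10 (adjusted p = 0.0144; 0.0708 after rescaling). Abca3, known for loading surfactant lipids in the lung, averaged 8.61 ± 0.480 FPKM in DSS_CS and 11.3 ± 1.11 in CON_CS, a log2 difference of -0.35 ± 0.09 (adjusted p = 0.0068; 0.0834 without the Pbsn libraries).

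The dimer partners Abcg5 and Abcg8 went the other way in CS mice. Abcg5 (ENSMUSG00000040505, chromosome 17, 84658234 to 84683011, minus strand) was at 3.30, 0.387, 0.701 and 0.905 FPKM in DSS_CS, against 6.32, 19.1, 7.13 and 6.01 in CON_CS. In VD mice Abcg5 was at 7.08, 11.6, 5.77 and 7.20 FPKM in DSS_VD, against 2.05, 6.01, 6.93 and 0.594 in CON_VD. The CS groups were apart, with DSS_CS low, while the VD groups overlapped. Abcg5 fell by 2.19 ± 0.43 on the log2 scale in CS mice (adjusted p = 0.0019), and its difference in VD mice was 1.10 ± 0.47 (adjusted p = 0.0956).

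Abcg8 (ENSMUSG00000024254, chromosome 17, 84676302 to 84700333, plus strand) was at 0.975, 0.352, 0.388 and 0.540 FPKM in DSS_CS, against 2.21, 6.25, 2.40 and 1.88 in CON_CS. In VD mice Abcg8 was at 2.09, 3.28, 1.87 and 2.06 FPKM in DSS_VD, against 0.769, 1.70, 2.40 and 0.249 in CON_VD. The same libraries were high and low as for Abcg5, among them CON_CS replicate 2 at the top. Abcg8 fell by 1.33 ± 0.28 in CS mice (adjusted p = 0.00306), and its difference in VD mice was 0.63 ± 0.29 (adjusted p = 0.119). It entered the CS test through CON_CS alone, so its CS groups had to be apart. Abcg5 was 1.10 to 3.38 times Abcg8 in DSS_CS, 3.08 to 3.53 times in DSS_VD, 2.86 to 3.19 times in CON_CS and 2.38 to 3.54 times in CON_VD. The annotated spans of the 2 genes overlap, and strandedness is not stated for these libraries, so reads from the overlap cannot be told apart.

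Abcg1, which passes sterols to high-density lipoprotein, was at 3.36, 3.73, 3.57 and 3.67 FPKM in DSS_CS, against 1.80, 1.66, 1.83 and 1.34 in CON_CS. Abcg1 in VD mice was at 4.03, 1.67, 2.04 and 2.67 FPKM in DSS_VD, against 1.36, 1.22, 1.43 and 0.767 in CON_VD. The DSS libraries were higher without overlap in both birth modes. It rose by 0.79 ± 0.09 in CS mice (adjusted p = 6.3e-05) and 0.68 ± 0.20 in VD mice (adjusted p = 0.023). The VD call was lost with no filter on low values (adjusted p = 0.0611), without CON_VD replicate 4 (adjusted p = 0.0575) and without DSS_VD replicate 4 (adjusted p = 0.0558).

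Of 18 further genes of sterol handling, 16 were tested in CS mice, where 8 rose and 4 fell, and 15 in VD mice, where 4 rose and 1 fell. Over all tested genes, 34.4% rose and 25.9% fell in CS mice, and 24% rose and 17% fell in VD mice. Their median log2 difference was 0.32 in CS mice and 0.24 in VD mice, beside 0.06 over all tested genes. Apoe, an apolipoprotein that accepts cholesterol, averaged 671 ± 207 FPKM in DSS_CS and 75.5 ± 4.86 in CON_CS, and 589 ± 221 in DSS_VD and 82.8 ± 32.7 in CON_VD (SD, n = 4 each). Apoe rose by 3.08 ± 0.22 in CS mice (adjusted p = 5.63e-06) and by 2.79 ± 0.35 in VD mice (adjusted p = 0.000301). Pltp, the phospholipid transfer protein, rose by 1.98 ± 0.19 in CS mice (adjusted p = 2.81e-05) and by 1.21 ± 0.25 in VD mice (adjusted p = 0.00398). Soat2, which esterifies cholesterol, rose by 1.43 ± 0.15 in CS mice (adjusted p = 3.98e-05) and by 0.92 ± 0.16 in VD mice (adjusted p = 0.0015). Beside these rises, all 9 macrophage genes and all 7 fibroblast genes rose in both birth modes, and their part in the results was not tested.

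On the log2(FPKM + 1) scale, the drug pump Abcb1a had the largest fall with DSS of any tested member in both birth modes. In VD mice this was close to the fall of Abcc3, at -1.39 ± 0.15. There the ratio of mean FPKM, DSS_VD over CON_VD, was 0.38 for Abcb1a and 0.36 for Abcc3. Abcb1a (ENSMUSG00000040584, chromosome 5, 8660077 to 8748575) was at 7.93, 3.73, 6.77 and 6.09 FPKM in DSS_CS, against 35.6, 56.5, 67.6 and 32.5 in CON_CS. In VD mice Abcb1a was at 38.1, 19.5, 10.9 and 11.5 FPKM in DSS_VD, against 31.7, 76.6, 57.7 and 43.9 in CON_VD. All DSS_CS libraries were far below water, whereas DSS_VD replicate 1 lay among the CON_VD libraries. Abcb1a fell by 2.76 ± 0.27 in CS mice (adjusted p = 3.32e-05) and by 1.45 ± 0.40 in VD mice (adjusted p = 0.017). The VD call was lost without CON_VD replicate 2 (adjusted p = 0.0505) and with no filter on low values (adjusted p = 0.0501), and over 14 alternatives the difference lay between -1.81 and -1.24.

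Its near copy Abcb1b (ENSMUSG00000028970, chromosome 5, 8798147 to 8866315) was at 1.72, 2.04, 1.55 and 1.69 FPKM in DSS_CS, against 0.701, 0.656, 1.20 and 0.619 in CON_CS. In VD mice Abcb1b was at 1.98, 1.06, 1.83 and 1.11 FPKM in DSS_VD, against 0.579, 1.23, 1.10 and 0.739 in CON_VD. Abcb1b rose by 0.62 ± 0.12 in CS mice (adjusted p = 0.00162), opposite to Abcb1a, and its difference in VD mice was 0.38 ± 0.17 (adjusted p = 0.11). Abcb1a exceeded Abcb1b by a factor of 1.83 to 4.62 in DSS_CS and 5.96 to 19.2 in DSS_VD, against 50.8 to 86.1 in CON_CS and 52.7 to 62.4 in CON_VD. None of these ranges under DSS reached those in water. The transcripts are near-identical in places, so how shared reads were assigned could affect both values. The third gene of the cluster, the phospholipid flippase Abcb4, stayed between 0.0564 and 0.257 FPKM.

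**Figure D3:**
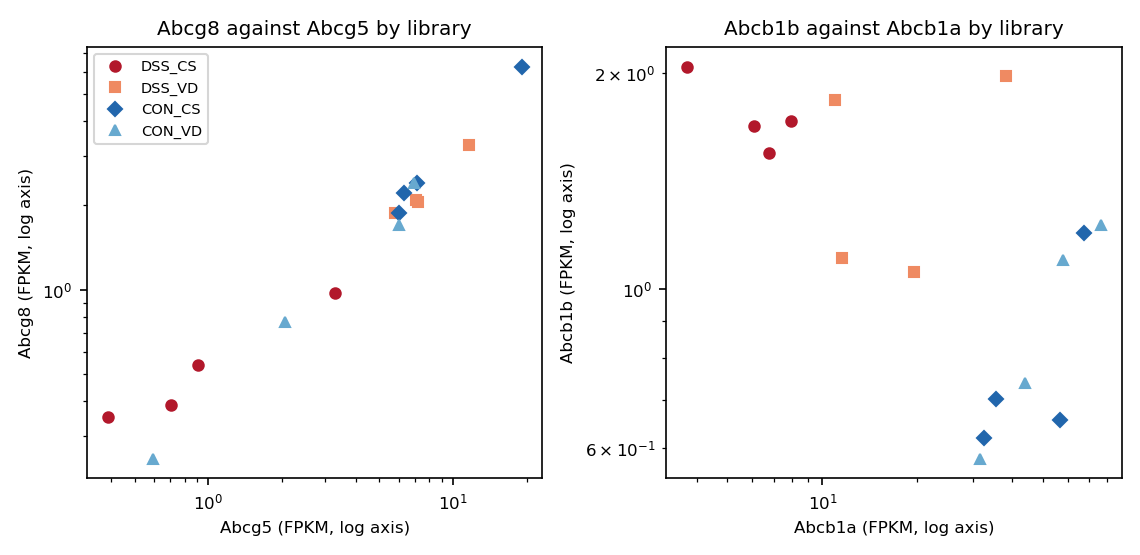
Level of Abcg8 against Abcg5 (left) and of Abcb1b against Abcb1a (right) in FPKM on log axes, with 1 point per library coloured by group. Abcg5 and Abcg8 fall along 1 line over 16 libraries, while Abcb1a is low and Abcb1b high in the 4 DSS_CS libraries. For Abcb1b, DSS_CS (1.55 to 2.04 FPKM) overlaps DSS_VD (1.06 to 1.98).

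Abcg2, an apical pump of drugs and urate (ENSMUSG00000029802, chromosome 6, 58584523 to 58695676), was at 3.78, 2.98, 3.38 and 2.97 FPKM in DSS_CS, against 6.61, 5.84, 5.18 and 5.29 in CON_CS. Abcg2 in VD mice was at 8.50, 9.77, 4.92 and 6.198 FPKM in DSS_VD, against 7.74, 6.66, 7.35 and 8.66 in CON_VD. DSS_CS libraries were the lowest 4 of the 16. It fell by 0.65 ± 0.10 on the log2 scale in CS mice (adjusted p = 0.000478), and the VD difference was -0.08 ± 0.19 (adjusted p = 0.769).

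Abcg3, a rodent relative of Abcg2, was at 2.59, 1.79, 2.98 and 3.77 FPKM in DSS_CS, against 0.687, 0.853, 0.777 and 0.686 in CON_CS. Abcg3 in VD mice was at 5.16, 1.95, 3.37 and 2.17 FPKM in DSS_VD, against 1.37, 0.943, 1.05 and 0.551 in CON_VD. The DSS libraries were above the water libraries in both birth modes. In CS mice this had to be so, since Abcg3 entered that test through DSS_CS alone. It rose by 1.09 ± 0.15 in CS mice (adjusted p = 0.000279) and 1.03 ± 0.24 in VD mice (adjusted p = 0.00765).

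Receptors and factors known to act on drug and bile transporter genes also changed. Of 11 tested in each birth mode, 4 rose and 6 fell in CS mice, and 3 rose and 4 fell in VD mice. This stands beside 34.4% higher and 25.9% lower of all tested genes in CS mice, and 24% and 17% in VD mice. The median log2 difference was -1.06 in CS mice and -0.24 in VD mice. Vdr, the vitamin D receptor, averaged 3.36 ± 1.06 FPKM in DSS_CS and 37.3 ± 2.83 in CON_CS, and 9.77 ± 2.50 in DSS_VD and 37.4 ± 4.60 in CON_VD. Vdr fell by 3.17 ± 0.17 in CS mice (adjusted p = 1.41e-06) and by 1.86 ± 0.18 in VD mice (adjusted p = 0.000116). Hnf4a, an epithelial transcription factor, fell by 2.99 ± 0.34 in CS mice (adjusted p = 7.28e-05) and by 1.38 ± 0.17 in VD mice (adjusted p = 0.000324). The hypoxia factor Hif1a rose by 1.36 ± 0.15 in VD mice (adjusted p = 0.000178). Hif1a was also called higher in CS mice, at 44.4 ± 5.63 FPKM in DSS_CS and 23.2 ± 3.51 in CON_CS. The summed pan-epithelial level was lower in the same DSS_CS libraries, and its part in the falls of Abcb1a, Abcg2, Abcg5 and Abcg8 was not tested.

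Of 8 multidrug resistance proteins of the ABCC group, 5 were tested in each birth mode. Abcc3 and Abcc10 fell in both, and Abcc1 and Abcc5 rose in both. Shares of all tested genes were 25.9% lower and 34.4% higher in CS mice, and 17% and 24% in VD mice. Abcc3, a basolateral pump of glucuronides and bile salts (ENSMUSG00000020865, chromosome 11, 94343295 to 94392997), was at 9.40, 4.76, 7.30 and 7.13 FPKM in DSS_CS, against 23.0, 27.3, 35.3 and 19.6 in CON_CS. In VD mice Abcc3 was at 8.12, 9.52, 8.02 and 11.5 FPKM in DSS_VD, against 23.0, 28.6, 30.0 and 22.4 in CON_VD. No DSS library came near a water library. Abcc3 fell by 1.75 ± 0.21 in CS mice (adjusted p = 0.000123) and by 1.39 ± 0.15 in VD mice (adjusted p = 0.000142).

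Abcc10, a pump of lipophilic drugs, was at 1.73, 1.43, 1.80 and 1.70 FPKM in DSS_CS, against 4.37, 3.47, 4.57 and 3.14 in CON_CS. Abcc10 in VD mice was at 2.23, 1.99, 1.87 and 2.61 FPKM in DSS_VD, against 3.07, 4.07, 3.68 and 4.02 in CON_VD. The DSS libraries were lower without overlap in both birth modes. It fell by 0.87 ± 0.11 in CS mice (adjusted p = 0.000184) and 0.57 ± 0.12 in VD mice (adjusted p = 0.00396). Abcc6, known for its part in preventing mineralisation of soft tissue, was too low for the test, with 0.0275 to 0.0721 FPKM in DSS_CS, against 0.541 to 0.974 in CON_CS. In DSS_VD Abcc6 ranged from 0.0520 to 0.163 FPKM, against 0.574 to 1.27 in CON_VD, so the ranges were apart in both birth modes. Fitted without the filter on low values, its log2 difference was -0.72 ± 0.09 in CS mice and -0.82 ± 0.12 in VD mice (adjusted p = 0.000615 and 0.00281).

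Abcc5, an exporter of cyclic nucleotides, was at 5.52, 6.82, 6.82 and 5.62 FPKM in DSS_CS, against 1.91, 1.93, 2.16 and 1.77 in CON_CS. Abcc5 in VD mice was at 4.18, 2.53, 4.87 and 4.22 FPKM in DSS_VD, against 1.28, 1.41, 1.63 and 1.57 in CON_VD. All DSS libraries were higher than all water libraries. It rose by 1.29 ± 0.09 in CS mice (adjusted p = 5.89e-06) and 0.98 ± 0.16 in VD mice (adjusted p = 0.00113).

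Abcc1, which exports glutathione conjugates and leukotriene C4, was at 3.93, 5.15, 5.36 and 4.34 FPKM in DSS_CS, against 2.84, 2.45, 2.86 and 2.07 in CON_CS. Abcc1 in VD mice was at 2.65, 2.14, 2.91 and 3.50 FPKM in DSS_VD, against 1.52, 1.81, 1.54 and 2.01 in CON_VD. The ranges were apart in both. It rose by 0.68 ± 0.12 in CS mice (adjusted p = 0.00089) and 0.48 ± 0.13 in VD mice (adjusted p = 0.0172), where the call was lost without CON_VD replicate 3 (adjusted p = 0.0528) or DSS_VD replicate 3 (adjusted p = 0.0501). Abcc4, which exports cyclic nucleotides and prostanoids, averaged 5.17 ± 0.851 FPKM in DSS_CS and 3.59 ± 0.884 in CON_CS with overlapping ranges. Its rise of 0.44 ± 0.16 (adjusted p = 0.0426) did not hold in 9 of 16 alternatives, with adjusted p up to 0.109. In VD mice the difference of Abcc4 was 0.46 ± 0.17 (adjusted p = 0.0604).

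Of 10 carriers of organic anions and bile acids, 7 were tested in each birth mode. In CS mice 2 were higher and 2 lower, beside 34.4% and 25.9% of all tested genes. In VD mice 4 were higher and none lower, beside 24% and 17%. Slco3a1, an organic anion carrier, rose by 1.12 ± 0.14 in CS mice (adjusted p = 0.000115) and by 0.85 ± 0.14 in VD mice (adjusted p = 0.00125). Fabp6, the ileal bile acid-binding protein, fell by 2.68 ± 0.20 in CS mice (adjusted p = 5.79e-06). Slc10a2, the ileal bile acid importer, rose by 1.44 ± 0.45 in VD mice (adjusted p = 0.0295), though its groups overlapped.

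The sulfonylurea receptor Abcc9 had the largest rise in CS mice. Abcc9 (ENSMUSG00000030249, chromosome 6, 142587862 to 142702315) was at 21.8, 31.1, 17.7 and 14.3 FPKM in DSS_CS, against 2.82, 3.27, 3.30 and 1.90 in CON_CS. In VD mice Abcc9 was at 4.24, 6.12, 8.88 and 10.5 FPKM in DSS_VD, against 0.965, 1.14, 2.08 and 1.92 in CON_VD. Levels in DSS_CS were above every other library. Abcc9 rose by 2.50 ± 0.23 in CS mice (adjusted p = 2.09e-05) and 1.70 ± 0.26 in VD mice (adjusted p = 0.000779). Its relative Abcc8, the receptor of pancreatic beta cells, stayed between 0.0620 and 0.238 FPKM in all libraries.

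Kcnj8, which encodes the channel pore that Abcc9 regulates, averaged 102 ± 42.7 FPKM in DSS_CS and 5.72 ± 1.23 in CON_CS, and 38.1 ± 9.87 in DSS_VD and 4.14 ± 1.01 in CON_VD. Kcnj8 rose by 3.88 ± 0.25 in CS mice (adjusted p = 2.84e-06) and by 2.91 ± 0.20 in VD mice (adjusted p = 2.62e-05). Kcnj11, the alternative pore, was at most 0.259 FPKM. The channel of Abcc9 and Kcnj8 is known from smooth muscle, pericytes and heart. The 8 smooth muscle markers summed to 1132 to 2702 FPKM in DSS_CS, 1014 to 1317 in DSS_VD, 1682 to 2244 in CON_CS and 1564 to 2559 in CON_VD. Of these 8 markers, 2 fell in CS mice and 6 fell in VD mice. Of all tested genes, 25.9% and 17% fell, and 34.4% and 24% rose. The 7 endothelial genes, all of which rose in both birth modes, summed to 120 to 163 FPKM in DSS_CS, 60.3 to 107 in DSS_VD, 29.9 to 35.3 in CON_CS and 26.3 to 31.0 in CON_VD. The part of these cell types in the rise of Abcc9 was not tested.

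**Figure D4:**
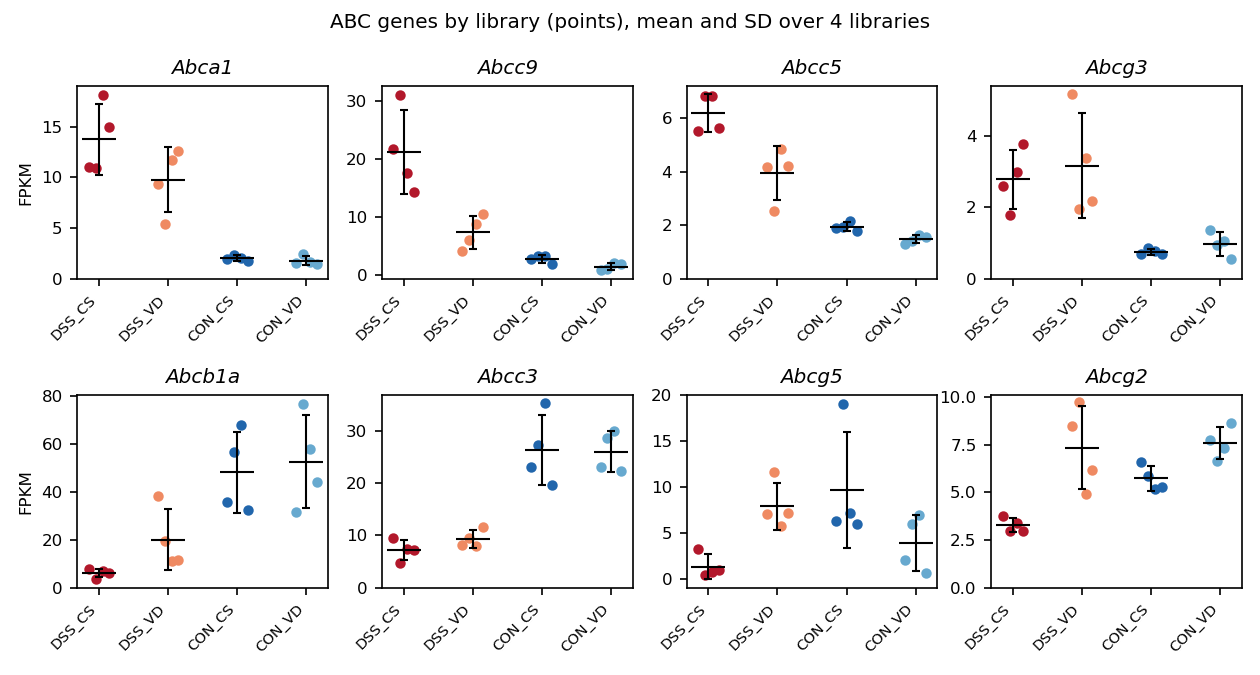
FPKM of 8 ABC genes in each library (points) with mean and SD over 4 libraries, for DSS_CS, DSS_VD, CON_CS and CON_VD from left to right; each panel has its own axis. By group mean, Abca1, Abcc9, Abcc5 and Abcg3 are higher under DSS, Abcb1a and Abcc3 are lower, and Abcg5 and Abcg2 are lowest in DSS_CS. For Abcg5, CON_VD replicate 4 (0.594 FPKM) lies among the DSS_CS libraries.

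Of 5 ABCB transporters of mitochondria and related organelles, 4 were tested. These 4 passed as lower in CS mice and 2 of them in VD mice, beside 25.9% and 17% of all tested genes, and the CS call of Abcb10 was lost in most alternatives. Abcb6, a porphyrin transporter, was at 2.60, 2.27, 2.54 and 1.75 FPKM in DSS_CS, against 4.79, 4.74, 4.93 and 4.16 in CON_CS. Abcb6 in VD mice was at 2.22, 2.39, 2.34 and 3.03 FPKM in DSS_VD, against 4.69, 4.62, 6.06 and 4.41 in CON_VD. The groups were well apart. Abcb6 fell by 0.79 ± 0.10 in CS mice (adjusted p = 0.000195) and by 0.76 ± 0.12 in VD mice (adjusted p = 0.00103).

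Abcb8, a protein of the mitochondrial inner membrane, was at 4.24, 3.85, 4.82 and 5.17 FPKM in DSS_CS, against 7.11, 7.66, 6.88 and 7.77 in CON_CS. Abcb8 in VD mice was at 4.19, 4.30, 4.38 and 5.29 FPKM in DSS_VD, against 7.72, 8.61, 8.94 and 7.08 in CON_VD. No range overlapped. It fell by 0.60 ± 0.09 in CS mice (adjusted p = 0.000541) and 0.71 ± 0.11 in VD mice (adjusted p = 0.000826).

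Abcb10, an inner membrane protein linked to heme synthesis, was at 6.07, 6.08, 5.21 and 6.17 FPKM in DSS_CS, against 7.89, 7.95, 6.79 and 6.28 in CON_CS. Abcb10 in VD mice was at 5.39, 4.90, 4.99 and 7.01 FPKM in DSS_VD, against 6.59, 7.598, 7.11 and 6.80 in CON_VD. Its fall of 0.25 ± 0.10 on the log2 scale in CS mice (adjusted p = 0.046) did not hold in 11 of 16 alternatives, 7 of which left out 1 library, with adjusted p up to 0.303. Abcb9, a lysosomal peptide transporter that was too low for the test, averaged 0.885 ± 0.0884 FPKM in DSS_CS and 0.735 ± 0.0246 in CON_CS, and each DSS_CS library was above each CON_CS library. In VD mice it averaged 0.768 ± 0.120 FPKM in DSS_VD and 0.929 ± 0.0717 in CON_VD. Fitted without the filter, Abcb9 passed in neither, with 0.12 ± 0.07 in CS mice and -0.13 ± 0.09 in VD mice (adjusted p = 0.261 and 0.393).

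Heme and iron-sulfur genes went both ways. Of 15 tested in CS mice 4 rose and 3 fell, beside 34.4% and 25.9% of all tested genes. Of 14 tested in VD mice 2 rose and 3 fell, beside 24% and 17%. Nfs1, the cysteine desulfurase of iron-sulfur assembly, fell by 0.71 ± 0.10 in CS mice (adjusted p = 0.000326), and the scaffold gene Iscu rose by 0.70 ± 0.09 (adjusted p = 0.00021). Iscu was also called higher in VD mice. Alas1, the first enzyme of heme synthesis in most cells, rose by 0.89 ± 0.15 in VD mice (adjusted p = 0.00156), where the later enzyme Uros fell by 0.49 ± 0.11 (adjusted p = 0.00543). Uros was also called lower in CS mice. Alas2, the heme synthesis enzyme of red cells, rose by 3.82 ± 0.59 in CS mice (adjusted p = 0.000485; 2.77 without the Pbsn libraries). It is also 1 of 5 erythrocyte genes that rose together in CS mice, with summed levels of 903 to 9731 FPKM in DSS_CS and 28.4 to 47.7 in CON_CS, and the part of red cells in these values was not tested.

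The peroxisomal transporters differed from each other. Abcd3, which imports branched-chain and dicarboxylic acyl groups, was at 13.3, 7.98, 7.68 and 9.17 FPKM in DSS_CS, against 20.2, 18.1, 18.6 and 15.1 in CON_CS. Abcd3 in VD mice was at 11.9, 14.5, 10.8 and 15.9 FPKM in DSS_VD, against 13.0, 13.2, 15.3 and 20.7 in CON_VD. It fell by 0.87 ± 0.16 in CS mice (adjusted p = 0.00154; without the Pbsn libraries 0.049 over the same genes and 0.0538 with the filter applied again), and the VD groups overlapped with a difference of -0.21 ± 0.17 (adjusted p = 0.371).

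Abcd2, a peroxisomal importer of fatty acyl groups that was below the filter, was at 0.746, 0.702, 0.936 and 1.22 FPKM in DSS_CS, against 0.115, 0.1002, 0.149 and 0.117 in CON_CS. In VD mice Abcd2 was at 0.192 to 0.667 FPKM in DSS_VD, against 0.0953 to 0.341 in CON_VD, with overlapping ranges. Without the filter, the log2 difference of Abcd2 was 0.76 ± 0.09 in CS mice (adjusted p = 0.000438). In VD mice it was 0.35 ± 0.12 and did not pass (adjusted p = 0.0841). Abcd4, which passes cobalamin out of lysosomes, averaged 1.87 ± 0.158 FPKM in DSS_CS and 1.84 ± 0.244 in CON_CS, a difference of 0.02 (95% interval -0.19 to 0.22).

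Of 12 peroxisomal genes tested in CS mice 1 rose and 6 fell, beside 34.4% and 25.9% of all tested genes. Of 11 tested in VD mice none rose and 4 fell, beside 24% and 17%. Ehhadh, a beta-oxidation enzyme, averaged 2.74 ± 0.662 FPKM in DSS_CS and 10.5 ± 1.02 in CON_CS, and 4.03 ± 0.551 in DSS_VD and 9.88 ± 0.363 in CON_VD. Ehhadh fell by 1.63 ± 0.14 in CS mice (adjusted p = 1.23e-05) and by 1.12 ± 0.10 in VD mice (adjusted p = 8e-05). Pex11a, which acts in peroxisome division, fell by 0.71 ± 0.09 in CS mice (adjusted p = 0.000144), and the thiolase Acaa1a fell by 0.97 ± 0.17 in VD mice (adjusted p = 0.00192). Pex11a was also called lower in VD mice, and Acaa1a in CS mice.

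Of 4 soluble members, Abcf2 passed in both birth modes, and Abcf1, Abcf3 and Abce1 passed in neither. Abcf1, which binds initiation factor eIF2, was at 20.9, 20.9, 21.5 and 21.4 FPKM in DSS_CS, against 23.7, 19.4, 21.8 and 19.99 in CON_CS. Abcf1 in VD mice was at 19.2, 21.2, 22.0 and 21.1 FPKM in DSS_VD, against 18.9, 18.2, 19.5 and 23.0 in CON_VD. All groups overlapped, and the 95% interval of the difference was -0.19 to 0.18 in CS mice and -0.17 to 0.30 in VD mice.

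Abcf2 was at 20.5, 25.5, 22.3 and 21.9 FPKM in DSS_CS, against 15.99, 14.6, 12.9 and 12.4 in CON_CS. Abcf2 in VD mice was at 17.3, 15.9, 20.9 and 21.9 FPKM in DSS_VD, against 13.0, 11.3, 14.1 and 15.3 in CON_VD. Within each birth mode, every DSS library was above every water library. Abcf2 rose by 0.66 ± 0.10 in CS mice (adjusted p = 0.000547) and 0.47 ± 0.14 in VD mice (adjusted p = 0.0213). The VD call was lost without CON_VD replicate 2 (adjusted p = 0.0635), DSS_VD replicate 3 (0.0648) or DSS_VD replicate 4 (0.0581).

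Abce1 was at 12.7, 12.6, 15.6 and 17.6 FPKM in DSS_CS, against 14.6, 12.5, 11.8 and 9.75 in CON_CS. Abce1 in VD mice was at 11.4, 11.8, 14.2 and 16.6 FPKM in DSS_VD, against 8.09, 9.72, 10.2 and 12.5 in CON_VD. The groups overlapped, with differences of 0.25 ± 0.14 (adjusted p = 0.165) in CS mice and 0.38 ± 0.16 (adjusted p = 0.0796) in VD mice. Abcf3 averaged 12.6 ± 1.32 FPKM in DSS_CS and 10.6 ± 0.781 in CON_CS (adjusted p = 0.0608). Of 8 tested genes of initiation, termination and ribosome rescue, 4 rose in CS mice and 1 rose in VD mice. The shares of all tested genes that rose were 34.4% and 24%. Etf1, the release factor eRF1, rose by 0.54 ± 0.09 in CS mice (adjusted p = 0.000777). Eif2s1, a subunit of eIF2, rose by 0.34 ± 0.10 in CS mice (adjusted p = 0.0183) and by 0.37 ± 0.12 in VD mice (adjusted p = 0.0312).

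The ABC genes with other names moved in both directions. Cftr, the epithelial chloride channel, averaged 0.863 ± 0.635 FPKM in DSS_CS and 12.7 ± 2.22 in CON_CS, and 2.003 ± 1.22 in DSS_VD and 11.2 ± 4.54 in CON_VD. Cftr fell by 2.93 ± 0.24 in CS mice (adjusted p = 1.11e-05) and by 2.05 ± 0.31 in VD mice (adjusted p = 0.000842). Tap2, which forms the antigen peptide transporter with Tap1, rose by 0.54 ± 0.16 in CS mice (adjusted p = 0.0151) and by 1.05 ± 0.26 in VD mice (adjusted p = 0.0111). Tap1 rose by 1.87 ± 0.38 in VD mice (adjusted p = 0.0036). In CS mice Tap1 averaged 12.2 ± 2.78 FPKM in DSS_CS and 8.01 ± 2.73 in CON_CS (adjusted p = 0.0537).

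The next comparison set the birth modes side by side under DSS. In all, 6 of 31 tested members (19.4%) were called, 2 with a higher and 4 with a lower level in DSS_CS, beside 13.4% of 14313 tested genes (7.89% higher and 5.54% lower). Ranges were apart for 12 members, 6 higher and 6 lower, beside 22.5% of all genes (15.3% higher and 7.18% lower). The medians were 0.08 over members and 0.06 over all tested genes. The split over all genes was 1130 higher and 793 lower on the deposited scale, and 791 and 885 after rescaling, while the 6 called members were the same in direction.

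**Figure D5:**
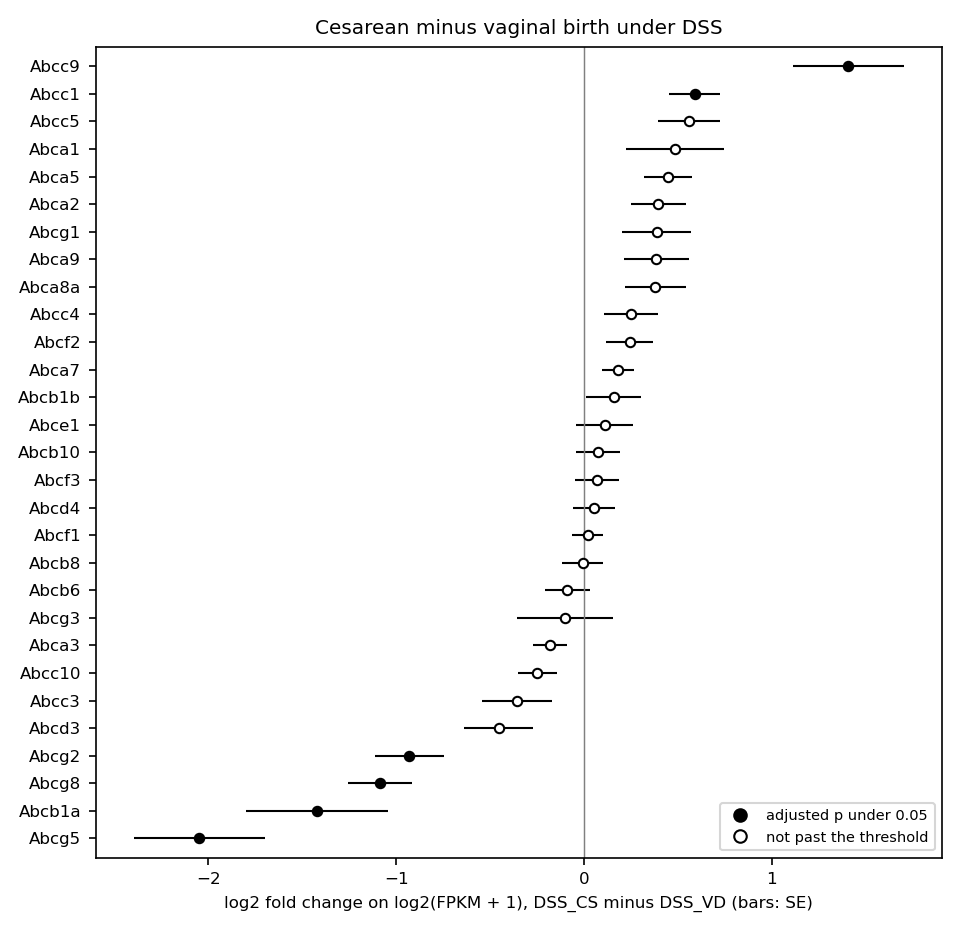
Log2 difference (x axis, on log2(FPKM + 1), bars SE) of the tested ABC genes reported here between DSS_CS and DSS_VD, ordered by size; filled circles passed an adjusted p of 0.05. Abcg5 lies lowest at -2.05 and Abcc9 highest at 1.41.

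The 4 members lower in DSS_CS were Abcg5, Abcg8, Abcb1a and Abcg2. Abcg5 averaged 1.32 ± 1.33 FPKM in DSS_CS and 7.91 ± 2.54 in DSS_VD, and fell by 2.05 ± 0.35 (adjusted p = 0.0313). Abcg8 averaged 0.564 ± 0.286 FPKM in DSS_CS and 2.33 ± 0.646 in DSS_VD, and fell by 1.09 ± 0.17 (adjusted p = 0.0313). It was tested only because 4 DSS_VD libraries reached 1 FPKM. Abcb1a averaged 6.13 ± 1.77 FPKM in DSS_CS and 19.999 ± 12.7 in DSS_VD, and fell by 1.42 ± 0.38 (adjusted p = 0.0446). Abcg2 averaged 3.28 ± 0.386 FPKM in DSS_CS and 7.35 ± 2.19 in DSS_VD, and fell by 0.93 ± 0.19 (adjusted p = 0.0313). In all 4 genes each DSS_CS library was below each DSS_VD library, which for Abcg8 followed from the filter. Abcb1b did not pass, with a difference of 0.16 ± 0.15 (adjusted p = 0.502).

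Abcc9 averaged 21.2 ± 7.26 FPKM in DSS_CS and 7.44 ± 2.80 in DSS_VD, and rose by 1.41 ± 0.29 (adjusted p = 0.0321). Kcnj8 rose by 1.36 ± 0.28 in the same comparison (adjusted p = 0.0319). Abcc1 averaged 4.70 ± 0.674 FPKM in DSS_CS and 2.80 ± 0.568 in DSS_VD, and rose by 0.59 ± 0.14 (adjusted p = 0.0347). Abca5 (0.45 ± 0.13) and Abcc5 (0.56 ± 0.16) had ranges apart but adjusted p of 0.0504 and 0.0542. The filter let Abca5 in through DSS_CS alone, so its ranges had to be apart. Abca1 did not pass, with a difference of 0.49 (95% interval -0.11 to 1.08), nor did Abcc3, with -0.36 (95% interval -0.78 to 0.07). Abcf1 had a difference of 0.02 (95% interval -0.17 to 0.20).

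These calls rested on few libraries. Without DSS_CS replicates 3 and 4, which hold Pbsn, no member was called (7 at an unadjusted p under 0.05), nor over the same tested genes (8 unadjusted), where 0.0419% of all genes were called. The differences were -1.83 for Abcg5, -1.52 for Abcb1a, -1.01 for Abcg8, -0.90 for Abcg2, 1.75 for Abcc9 and 0.55 for Abcc1. No member was called either without DSS_VD replicate 1, DSS_VD replicate 2, DSS_CS replicate 2 or DSS_CS replicate 3 alone (8 to 10 at an unadjusted p under 0.05), and 3 were called without DSS_CS replicate 4. Across 16 alternatives the adjusted p of Abcg5 ranged from 0.00724 to 0.112 and that of Abcc9 from 0.00186 to 0.0894. With all libraries, 7 of 10 pan-epithelial markers were lower in DSS_CS and 4 of 7 fibroblast markers were higher. Beside them, 5.54% of all tested genes were lower and 7.89% higher. Without the Pbsn libraries only 6 of all 14313 tested genes were called, so these marker counts do not hold there. The part of these cell types in the differences was not tested.

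Among 11 xenobiotic and bile acid receptors and factors, 5 fell in DSS_CS relative to DSS_VD and none rose. Of all tested genes, 5.54% fell and 7.89% rose in this fit with all libraries, which also gave the other list counts here. Nr1h4, the bile acid receptor FXR, averaged 8.38 ± 3.76 FPKM in DSS_CS and 24.2 ± 6.12 in DSS_VD, and fell by 1.49 ± 0.30 (adjusted p = 0.0313). Vdr fell by 1.30 ± 0.23 (adjusted p = 0.0313), and Nr1i2, the xenobiotic receptor PXR, fell by 1.66 ± 0.38 (adjusted p = 0.0352). Slc51b, a subunit of the basolateral bile acid exporter, averaged 3.12 ± 1.67 FPKM in DSS_CS and 20.7 ± 9.01 in DSS_VD, and fell by 2.39 ± 0.37 (adjusted p = 0.0309). None of Nr1h4, Vdr, Nr1i2, Slc51b or Kcnj8 passed without the Pbsn libraries, with adjusted p of 0.119, 0.0948, 0.165, 0.0843 and 0.0818. Of 12 peroxisomal genes 3 were lower and 1 higher. Of 15 heme and iron-sulfur genes 2 were higher and 1 lower. None of 16 sterol genes or 8 translation genes passed, nor did Cftr, Tap1 or Tap2.

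Whether the DSS response itself differed between birth modes was tested as an interaction over all 16 libraries. Of 31 tested members, 3 passed (9.68%), all with a lower response in CS mice, beside 13.2% of 15233 tested genes (6.68% higher and 6.55% lower). Abca6, at most 0.390 FPKM and too low for this test, had a higher response in CS mice when fitted without the filter. Its interaction was 0.25 ± 0.05 (adjusted p = 0.0251). The response of Abcg5 was -2.19 in CS mice and 1.10 in VD mice, an interaction of -3.29 ± 0.69 (adjusted p = 0.0124). For Abcg8 the response was -1.33 in CS mice and 0.63 in VD mice, an interaction of -1.96 ± 0.44 (adjusted p = 0.0147). Without the 3 Pbsn libraries no member passed (5 at an unadjusted p under 0.05), nor over the same tested genes, of which 4.87% passed, with interactions of -3.19 for Abcg5 (adjusted p = 0.0586) and -1.97 for Abcg8 (adjusted p = 0.0622).

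The interaction of Abcb1a was -1.30 ± 0.52 (adjusted p = 0.107), that of Abcg2 -0.58 ± 0.22 (0.0897), and that of Abcc9 0.80 ± 0.37 (0.155), so their DSS responses were not shown to differ between birth modes. Of 7 tested bile acid and organic anion carriers, 3 had a lower response in CS mice, beside 6.55% of all tested genes. These carriers were Fabp6 (-2.28 ± 0.55, adjusted p = 0.0195), Slc10a2 (-2.08 ± 0.59, adjusted p = 0.0332) and Slc51b (-1.69 ± 0.52, adjusted p = 0.0433). Without the Pbsn libraries their adjusted p was 0.0649 for Fabp6, 0.103 for Slc10a2 and 0.145 for Slc51b. Of the 10 pan-epithelial genes, 6 also had a lower response in CS mice with all libraries, and their part in these interactions was not tested.

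On normal water, none of 27 tested members differed between CON_CS and CON_VD by limma (0.407% of 13275 tested genes did), with 8 at an unadjusted p under 0.05. Ranges were apart for 4 members, 3 higher and 1 lower, beside 10.7% of all genes (6.31% higher and 4.41% lower). Abcc1 averaged 2.55 ± 0.376 FPKM in CON_CS and 1.72 ± 0.234 in CON_VD, a difference of 0.38 ± 0.11 (adjusted p = 0.132). Abcc5 averaged 1.94 ± 0.162 FPKM in CON_CS and 1.48 ± 0.157 in CON_VD (adjusted p = 0.184). Abcg2, the lower one, averaged 5.73 ± 0.652 FPKM in CON_CS and 7.601 ± 0.835 in CON_VD, a difference of -0.35 ± 0.10 (adjusted p = 0.139). Abcg5 averaged 9.63 ± 6.32 FPKM in CON_CS and 3.90 ± 3.05 in CON_VD, with overlapping ranges and a wide interval of the difference, 0.02 to 2.46 (adjusted p = 0.249). None of the sterol, receptor, carrier, peroxisome, heme or translation genes listed here passed on water. Some cell markers did, with all libraries. Called lower in CON_CS were 2 of 8 absorptive colonocyte genes, Aqp8 among them, and 1 of 2 tested lymphocyte genes. Of all tested genes, 0.226% were called lower. CON_CS replicate 1 carried Pbsn, and without it none of the members was called either (6 at an unadjusted p under 0.05), beside 0.113% of all genes.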

How the data were processed

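Colon RNA of 16 libraries was described from 1 table of FPKM values for 39328 genes, made and deposited by the authors; the labels' protocols give Trizol extraction. The submitters' processing notes name cutadapt, FastQC and GRCm38, without versions. No source used here names the aligner, quantifier, annotation or strandedness. No counts were used, so depth is unknown and no counting interval could be given; precision rests on the 4 libraries per group. Symbols were found for 39181 identifiers; positions came from GENCODE on GRCm38 and promoter windows from RefSeq. Groups came from the labels.

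Fits used limma 3.58.1 in R 4.3.3 with an intensity trend, on log2(FPKM + 1), for genes with at least 1 FPKM in at least 4 fitted libraries. P-values are two-sided and adjusted by the Benjamini-Hochberg method over all tested genes, with a threshold of 0.05. Each comparison used its own 8 libraries, the interaction all 16. Fitting code was checked on simulated tables in which 200 genes had known changes. Alternatives were a pseudocount of 0.1, no filter, median-of-ratios scaling, 1 fit on 16 libraries, a replicate block, no variance trend, leaving out each library, and leaving out libraries with Pbsn above 100 FPKM, the last also over the genes tested with all libraries (added after seeing the data). Numbers come from pandas 2.3.3 and numpy 2.4.6, and figures from matplotlib 3.10.9.

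The members, role groups, pathway lists and marker lists were chosen with earlier results of these data known. Values in every library were given for called members, at most 4 per role with the largest differences, for the 6 most abundant members, and for set pairs of relatives; of each pathway list, up to 3 called genes of smallest p were named. Abca6, Abcc6, Abcd2 and the members with p just above the threshold were named after their values were seen. Gcn1 and Sbp, listed for translation and accessory glands, were not matched. Some genes are not reported here, though counts over members and lists include them. No set test was run.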

Additional observations from a re-analysis of the deposited data

Results flagged for a closer look

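In 116 groups of 4 libraries (29 tested members in 4 groups), 9 had a library whose gap to the next made up a larger part of the group's range than Dixon's 95% critical value allows; chance gives about 1 in 20 groups. These were Abcf3 at 14.6 FPKM in DSS_CS replicate 4, Abcb10 at 5.21 in DSS_CS replicate 3, Abcb8 at 5.29 in DSS_VD replicate 4 and Abcg8 at 3.28 in DSS_VD replicate 2. In water they were Abcg5 at 19.1 and Abcg8 at 6.25 FPKM in CON_CS replicate 2, Abcb1b at 1.20 in CON_CS replicate 3, Abcb6 at 6.06 in CON_VD replicate 3 and Abca7 at 9.05 in CON_VD replicate 4.

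The DSS response differed between birth modes by the interaction test in Abcg5 by -3.29 and in Abcg8 by -1.96 on the log2(FPKM + 1) scale, CS minus VD. Neither passed without the 3 libraries with Pbsn above 100 FPKM, where adjusted p was 0.0586 for Abcg5 and 0.0622 for Abcg8.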

How the results depend on the processing

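No called difference changed sign in any alternative run. The called members numbered 14 in DSS_VD against CON_VD (11 to 17 without 1 library) and 26 in DSS_CS against CON_CS (21 to 24 without 1 library, 17 without the Pbsn libraries and 23 without them over the same tested genes, an alternative chosen after seeing the data). The 6 calls between DSS_CS and DSS_VD depended most on the setting. They became 0 with no filter (17 at an unadjusted p under 0.05), 0 without the Pbsn libraries (7 unadjusted; 0 and 8 over the same genes) and 10 in 1 fit on 16 libraries. Without 1 library they ranged from 0 to 7. The interaction gave 3 calls, 3 to 4 without 1 library and 0 without the Pbsn libraries, also over the same genes. On water it was 0 in every alternative, with 4 to 9 at an unadjusted p when 1 library was left out. Without the Pbsn libraries, over the same genes, calls over all tested genes also dropped. Their share went from 60.3% to 48.7% in DSS_CS against CON_CS, from 13.4% to 0.0419% in DSS_CS against DSS_VD and from 13.2% to 4.87% for the interaction. For the other alternatives, here and above, the share over all genes is not given, so these counts do not set the family apart.

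Replicate numbers do not pair the samples by the labels, and deviations of same-numbered libraries correlated between -0.30 and 0.14. With the replicate block the calls numbered 16 in DSS_VD against CON_VD, 25 in DSS_CS against CON_CS, 0 in DSS_CS against DSS_VD (12 unadjusted), 0 on water and 3 for the interaction. Some fits without 1 library gave no value for Abca5, Abca9, Abcg3 and Abcg8, and that without the Pbsn libraries none for Abcb1b either, since these fell below the filter; elsewhere the cause of lost calls was not tested. Without counts, the limit of detection of low members is unknown.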
